A study of Mus musculus with 6 samples.

Results

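Integrins are the cell-surface receptors that hold cells to the extracellular matrix, and laminins and nidogens build the basement membrane that many of them bind. The deposited count table of cultured mouse ovary holds 39 genes of these families among 27098, taken by gene symbol: 18 integrin alpha chains, 8 integrin beta chains, 11 laminin chains and both nidogens. The rule reads symbols only, not measured values, but it was set with earlier results of these data known. Ovaries of mice 3 days after birth were kept for 2 h in DMEM/F12 medium with antibiotics. The medium held either nothing further (control, 3 libraries) or 2% platelet-rich plasma (PRP, 3 libraries). PRP is blood plasma in which platelets, and with them the factors they release, are concentrated; the series text describes it as human and activated with thrombin. Neither label nor series text names a strain or genotype. Whole ovaries hold many cell types, so that fewer cells of a type and less RNA per cell cannot be told apart. Nothing in the labels says whether replicates came from separate cultures or litters, so the p-values below rest on the spread among these libraries alone, which may be technical.

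A laminin is a trimer of 1 alpha, 1 beta and 1 gamma chain, and laminin trimers assemble into a sheet that nidogens tie to the type IV collagen network. An integrin is a dimer of 1 alpha and 1 beta chain. Itgb1 pairs with many alpha chains, of which Itga6, Itga3 and Itga7 give laminin receptors. Itga5 with Itgb1 binds fibronectin, and Itgav pairs with several beta chains to bind matrix proteins that carry the RGD motif. Each ovarian follicle lies within a basement membrane that separates its granulosa cells from the stroma.

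Library totals ran from 35568000 to 36568367 counts, of which the members together took 0.610% to 0.711%. Values are CPM, counts scaled to a common library total, on TMM-scaled library sizes, where TMM is a trimmed-mean scaling between libraries. Levels are compared between genes only as CPM per kilobase of the longest annotated transcript. Markers of the labelled tissue were present in every library, with the germ cell gene Ddx4 at 80.8 to 89.2 CPM and the granulosa gene Foxl2 at 162 to 198 CPM. Control 3 stood apart by its blood genes: the summed level of 6 erythroid genes was 1335 CPM there and 108 to 225 CPM in the other 5 libraries. Both groups carry the numbers 1 to 3, and libraries of the same number deviated together, so values with the replicate number as a block are given where they bear on a result.

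Among integrin alpha chains, Itga6 had the highest level, at 188.4 ± 31.7 CPM per kb over all 6 libraries (SD). It made up 53.8% ± 4.4 of the summed alpha-chain level per kb in control and 51.3% ± 5.2 in PRP (SD, n = 3). Next came the fibronectin receptor chain Itga5 at 53.1 ± 7.3 and Itgav at 45.1 ± 3.7 CPM per kb, whose ranges overlapped. Itga9, which binds tenascin, and the laminin receptor chain Itga3 followed at 27.2 ± 4.0 and 24.1 ± 2.6 CPM per kb, again with overlapping ranges. Every other alpha chain lay at or below 3.30 CPM per kb on average. From Itgal down to Itgax each overlapped its next neighbour in range over libraries, so neighbours in this order do not differ beyond their spread. The order depended on the length used: per kb of the median transcript length Itga6 still led at 381 ± 64.0 CPM, followed by Itga9 at 294 ± 43.3, Itgav at 288 ± 23.8 and Itga5 at 94.8 ± 13.0 CPM (SD over 6 libraries). The collagen receptor chains Itga1, Itga2, Itga10 and Itga11 were in this low group, at 0.931 to 2.24 CPM per kb.

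Among beta chains Itgb1 lay at 188.1 ± 14.4 CPM per kb (SD over 6 libraries) and made up 81.5% ± 0.5 of the summed beta-chain level in control and 80.5% ± 1.0 in PRP (SD, n = 3). Its level per kb was thus close to that of Itga6. Itgb5, a partner of Itgav, followed at 33.6 ± 2.0 CPM per kb. Itgb8 and Itgb3, which also pair with Itgav, lay at 4.81 ± 0.51 and 4.18 ± 0.80 CPM per kb with overlapping ranges. The leukocyte chains Itgb2 and Itgb7 and the hemidesmosome chain Itgb4 lay at 0.680, 0.422 and 0.375 CPM per kb. Per kb of the median transcript length Itgb1 still led at 397 ± 30.3 CPM, with Itgb5 at 175 ± 10.4 CPM (SD over 6 libraries). Itgb7 at 2.52 CPM then lay above Itgb2 at 0.838 CPM, so the share of Itgb1 and the order of the scarce chains depend on the length used.

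The other 3 members were too scarce to test. Itgad, a leukocyte alpha chain, had 0 to 6 counts per library, Itgae, which marks intraepithelial lymphocytes, had 1 to 11, and the epithelial chain Itgb6 had 0 to 7. A count of 0 in a library allows up to 3 counts, or 0.0824 to 0.0852 CPM, and covers counting error only.

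Lamb1, Lamc1 and Lama1 were the highest laminin chains per kb of the longest transcript. Lamb1 lay at 132.8 ± 13.7, Lamc1 at 98.4 ± 5.1 and Lama1 at 44.7 ± 3.0 CPM per kb (SD over 6 libraries), with no overlap of ranges between these 3. Within the beta chains Lamb1 held 82.6% ± 1.6 of the level in control and 83.1% ± 0.8 in PRP. Within the gamma chains Lamc1 held 92.1% ± 1.1 and 90.9% ± 1.1 (SD, n = 3). Per kb of the median transcript length Lamc1 led at 812 ± 42.3 CPM, and Lamb2 at 320 ± 29.6 CPM lay above Lamb1 at 310.0 ± 32.0 CPM (SD over 6 libraries), so Lamb1's lead over Lamb2 depends on the length used.

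The alpha chains of laminin, which carry most of the receptor-binding surface, were more mixed. Lama1 held 42.7% ± 4.1 of the summed alpha-chain level per kb in control and 41.1% ± 3.9 in PRP (SD, n = 3). Lama2, the chain best known from muscle and stroma, held 26.1% ± 2.3 and 27.03% ± 3.90. Lama4, known from vessels, held 20.9% ± 2.6 and 20.9% ± 1.5, and Lama5 held 9.38% ± 0.70 and 9.89% ± 1.22. Per kb of the median transcript length Lama5 was the higher of these chains, at 193 ± 17.5 CPM against 170.4 ± 11.4 CPM for Lama1 (SD over 6 libraries), so the leading alpha chain depends on the length as well. Lama3 and Lamb3, chains of the laminin that anchors epithelia, lay at 1.04 and 0.511 CPM per kb. Nid1 lay at 153.5 ± 17.1 and Nid2 at 49.0 ± 4.8 CPM per kb, and Nid1 made up 76.4% ± 1.3 of both in control and 75.2% ± 0.5 in PRP.

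**Figure D1:**
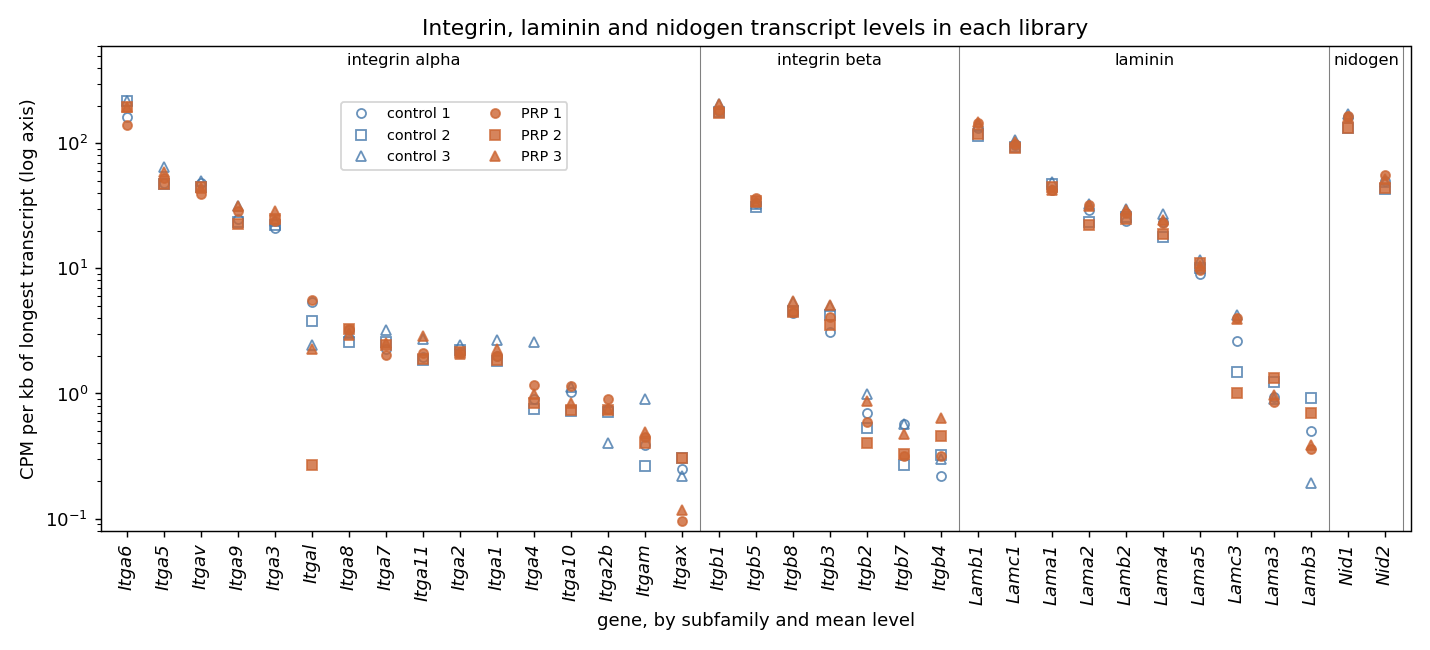
Transcript level of tested members in each library, as CPM per kb of the longest transcript on a log axis, with control libraries as open and PRP libraries as filled symbols. Itga6, Itgb1, Lamb1, Lamc1 and Nid1 top the plot, the symbols of both groups lie on each other for most genes, and Itgal and Lamc3 spread widest among genes averaging above 1 CPM per kb.

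The comparison of PRP with control bears on how the ovary's transcripts differ after 2 h with PRP. No integrin, laminin or nidogen gene passed an adjusted p of 0.05. In edgeR 0 of 36 tested members were called, where 0 of all 17475 genes (0%) were called, and the smallest adjusted p of any member was 0.9998. At an unadjusted p under 0.05 there were 3 of 36 members in edgeR, 3 in DESeq2 and 2 in limma-voom, and 3.19% of all genes in edgeR. With the replicate block 0 members were called as well, where 21 of all genes (0.120%) were called, 0.0801% higher and 0.0401% lower. Of all genes 0 were called in blocked limma-voom and 0 in the blocked edgeR fit without robust estimation, with 1961 and 1901 at an unadjusted p under 0.05. In the blocked edgeR fit with robust estimation 6 of 36 members had an unadjusted p under 0.05, where 11.2% of all genes did. The groups did not overlap in 3 members, or 8.33% against 9.21% of all genes. PRP was higher in 2 of them, Itgb5 included, where 4.34% of all genes were higher, and lower in Itga2 alone, where 4.87% were lower. The shares without overlap lie near the background. The edgeR shares of members at an unadjusted p under 0.05 lie above those of all genes, on few members.

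The members lay evenly around no difference. Of 36, 18 had a log2 fold change (PRP minus control) above 0 and 18 below, where 50.4% of all genes lay above 0. The median was -0.004, beside 0.001 for all genes tested. Integrin alpha chains were above 0 in 5 of 16 with a median of -0.10, beta chains in 5 of 7 with 0.01, laminin chains in 7 of 11 with 0.02 and nidogens in 1 of 2 with 0.04. The median of the members was 0.11 without control 3 and -0.08 without PRP 3, so its sign depends on single libraries. Among the sums of other cell types' markers, that of 6 surface mesothelium genes did not overlap between groups, at 167 to 178 CPM in control and 187 to 214 CPM in PRP. The sums for stroma, pericytes, endothelium, leukocytes, granulosa cells and oocytes overlapped. Within each replicate number PRP was still higher for stroma, pericytes and oocytes, but not for the other cell types that overlapped. In blocked edgeR 5 of 6 stromal, 4 of 6 pericyte and 3 of 6 mesothelial genes had an unadjusted p under 0.05. So did 2 of 7 oocyte, 1 of 9 leukocyte, 1 of 6 granulosa and 0 of 7 endothelial genes, beside 11.2% of all genes. With the block the oocyte genes Zp2 and Zp3 and the mesothelial gene Krt19 passed the adjusted p in edgeR. Their part in the members' values was not tested.

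How large a difference these libraries could hide varied with the gene. The 95% interval of the log2 fold change lay within a 1.5-fold change either way in 24 of 36 members, and within a 2-fold change in 26. For Itgb1 it ran from -0.18 to 0.19, for Lamc1 from -0.17 to 0.13, for Lamb1 from -0.15 to 0.31 and for Nid1 from -0.28 to 0.25. Of the 12 members with wider intervals, Itga10, Itga2b, Itgam, Itgax, Itgb2, Itgb4, Itgb7 and Lamb3 averaged under 5 CPM. The other 4 were Itga7, Itga4, Itgal and Lamc3.

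**Figure D2:**
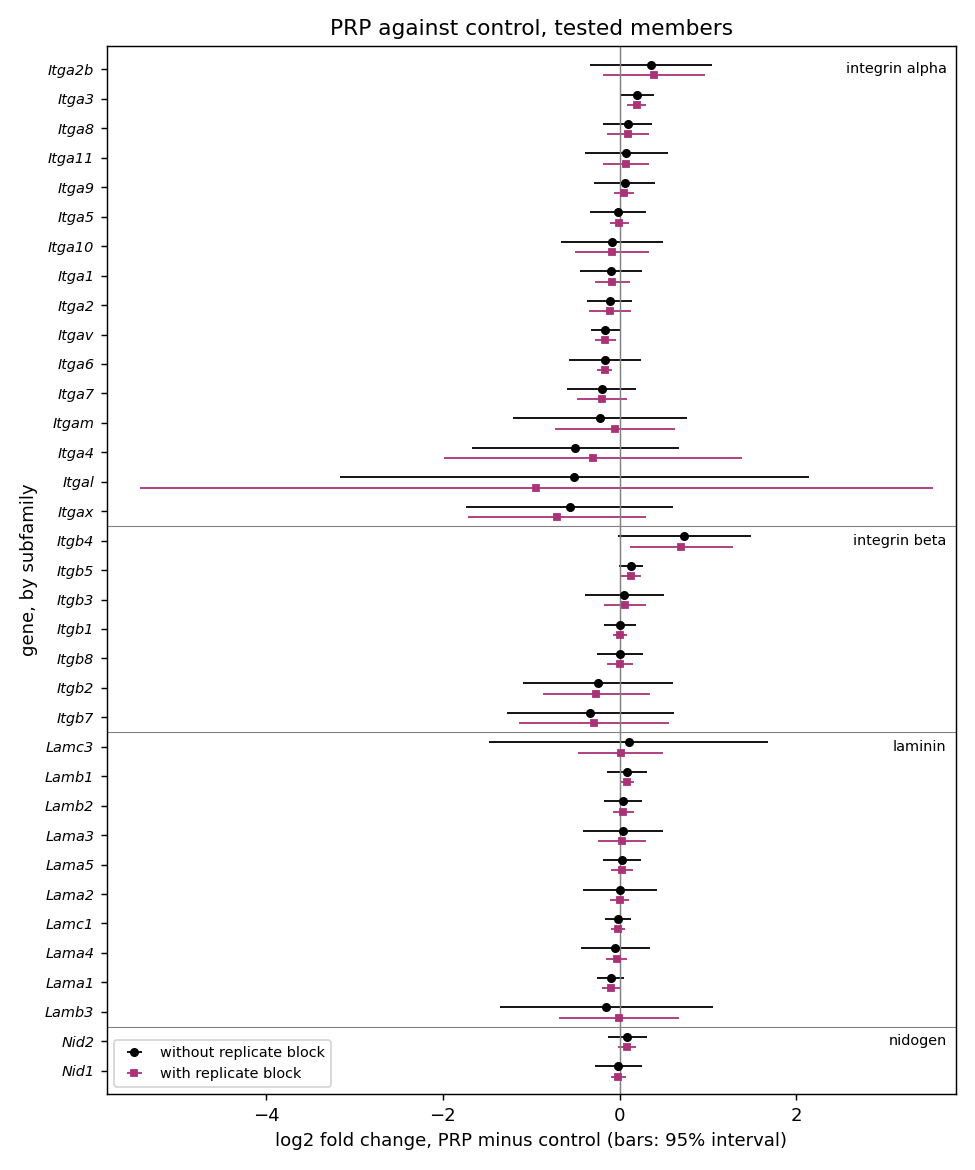
Log2 fold change of tested members, PRP minus control, with 95% intervals, from the fit without (circles) and with (squares) the replicate number as a block. The intervals of Itgb1, Lamc1 and Nid1 are short and span 0, those of Itgal, Itga4 and Lamc3 are long, and the blocked interval of Itga6 lies below 0 although its adjusted p is 0.125.

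Lama1 (Entrez 16772, chromosome 17, 67697127 to 67822645 in GRCm38), an early embryonic alpha chain, measured 403, 451 and 469 CPM in control and 405, 427 and 401 CPM in PRP. These groups overlapped, and the log2 fold change was -0.10 ± 0.07 (SE).

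Lamb1 (Entrez 16777, chromosome 12, 31265146 to 31329644) measured 761, 663 and 813 CPM in control and 833, 685 and 853 CPM in PRP. It was slightly higher in PRP in each pair of the same number, by 0.08 ± 0.04 with the block (SE; edgeR adjusted p = 0.449). Lamc1 (Entrez 226519, chromosome 1, 153218922 to 153332786) measured 745, 717 and 804 CPM in control and 754, 699 and 782 CPM in PRP, a log2 fold change of -0.02 ± 0.07 (SE).

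Both nidogens were lowest in the replicate 2 libraries of both groups. Nid1 (Entrez 18073, chromosome 13, 13437602 to 13512275) measured 983, 800 and 1037 CPM in control and 1001, 806 and 983 CPM in PRP. Nid2 (Entrez 18074, chromosome 14, 19751257 to 19811787), whose span overlaps Rtraf, measured 245, 211 and 238 CPM in control and 272, 214 and 253 CPM in PRP. Their log2 fold changes were -0.02 ± 0.12 and 0.09 ± 0.09 (SE), and the groups overlapped in both genes.

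Itga6 (Entrez 16403, chromosome 2, 71786886 to 71858427), the leading laminin receptor chain, measured 694, 940 and 941 CPM in control and 603, 848 and 845 CPM in PRP. Libraries of replicate 1 were lowest in both groups, and PRP was lower than control within each number. The log2 fold change was -0.17 ± 0.17 without and -0.17 ± 0.04 with the block (SE), and with the block its adjusted p of 0.125 in edgeR was the smallest of all members. Its partner Itgb1 (Entrez 16412, chromosome 8, 128685654 to 128733579) measured 689, 678 and 781 CPM in control and 705, 661 and 790 CPM in PRP, a log2 fold change of 0.01 ± 0.08 (SE).

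Itga3 (Entrez 16400, chromosome 11, 95044475 to 95076844), another laminin receptor chain, measured 103, 107 and 117 CPM in control and 116, 120 and 139 CPM in PRP. PRP exceeded control within each number, with a log2 fold change of 0.20 ± 0.08 without the block (SE). Its adjusted p in edgeR was 0.161 with the block. Itga7, a laminin receptor chain of muscle, measured 9.14, 10.4 and 12.9 CPM in control and 8.18, 9.74 and 10.2 CPM in PRP, with overlapping groups and a log2 fold change of -0.20 ± 0.17 (SE). The 3 laminin receptor chains thus had differences of both signs, none past the threshold.

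Itgav (Entrez 16410, chromosome 2, 83722303 to 83806917) measured 341, 313 and 353 CPM in control and 278, 315 and 307 CPM in PRP. Only PRP 2 reached into the control range, and the log2 fold change was -0.16 ± 0.07 (SE). With the block its adjusted p in edgeR was 0.254. Its partner Itgb5 (Entrez 16419, chromosome 16, 33829665 to 33949338) measured 108, 101 and 107 CPM in control and 120, 114 and 112 CPM in PRP. Here the groups did not overlap, and the log2 fold change of 0.13 ± 0.06 (SE) had a sign opposite to that of Itgav. Itgb8, which with Itgav activates latent TGF-beta, measured 37.3, 38.3 and 45.3 CPM in control and 37.4, 37.5 and 46.5 CPM in PRP, so that the same numbers gave nearly the same values in both groups.

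Itga5 (Entrez 16402, chromosome 15, 103344286 to 103366791) measured 213, 209 and 285 CPM in control and 231, 208 and 261 CPM in PRP. Replicate 3 was highest in both groups, and the log2 fold change was -0.01 ± 0.14 (SE). Itga2, a collagen receptor chain, measured 15.2, 15.8 and 17.4 CPM in control and 15.02, 15.15 and 14.7 CPM in PRP. The lowest control library lay at 15.195 CPM, barely above the highest PRP library, and the log2 fold change was -0.11 ± 0.11 (SE). Itgb4, the hemidesmosome partner of Itga6, measured 1.37, 2.01 and 1.87 CPM in control and 1.95, 2.82 and 3.96 CPM in PRP. It was higher in PRP within each number, on 49 to 143 counts per library, and its span overlaps Galk1. The log2 fold change was 0.73 ± 0.33 without and 0.70 ± 0.28 with the block (SE), where the adjusted p in edgeR was 0.344 with the block.

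Itga2b and Itgb3 form the fibrinogen receptor of platelets. Itga2b measured 2.59, 2.45 and 1.39 CPM in control and 3.10, 2.54 and 2.58 CPM in PRP, a log2 fold change of 0.35 ± 0.31 (SE). Itgb3 measured 17.9, 24.4 and 28.9 CPM in control and 23.8, 20.5 and 29.7 CPM in PRP, a log2 fold change of 0.05 ± 0.19 (SE). The groups overlapped in both. The summed level of 7 platelet genes, Itga2b included, was 5.08 to 6.69 CPM in control and 5.88 to 8.75 CPM in PRP. Ppbp, Gp1ba, Gp1bb, Gp9 and Gp6 each stayed at or below 0.568 CPM in all 6 libraries. The remaining gene of the sum was Pf4. Of the 7 genes 2 were tested, and both lay above 0, with log2 fold changes of 0.35 (Itga2b) and 0.48. Neither was called.

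In 25 of 36 members the replicate number took most of the variance, and in 5 the treatment did, among them Itgb5, Itgav, Itgb4 and Itga3. The replicate number's share of a member's variance of log2 CPM had a median of 75.9%, and that of the treatment one of 4.96%, beside 55.8% and 11.3% over all genes tested. With that median of 55.8%, the replicate number took most of the variance in most genes as well. The replicate number has 3 levels and the treatment 2, so on average it takes a larger share even where neither has an effect. In 15 of 36 members (41.7%) both replicate 2 libraries were the lowest of the 6, where 14.2% of all genes showed this. Among them were Nid1, Nid2, Lamb1, Lamc1, Lama2, Lama4 and Lamc3, or 7 of the 13 laminins and nidogens. The integrins among them were Itga1, Itga4, Itga5, Itga9, Itga10, Itga11, Itgb1 and Itgb2. Both replicate 3 libraries were the highest in 12 members, where 11.6% of all genes showed this. Both replicate 1 libraries were the lowest in 4 members, Itga6, Itga7, Itgb8 and Lama5, where 9.16% of all genes showed this.

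Lamc3 (Entrez 23928, chromosome 2, 31887281 to 31949083), a minor gamma chain, showed the widest such split. It measured 15.5, 8.72 and 24.8 CPM in control and 23.4, 5.93 and 23.3 CPM in PRP. Lama2 (Entrez 16773, chromosome 10, 26981285 to 27617191) measured 282, 226 and 315 CPM in control and 307, 213 and 305 CPM in PRP. Both genes were lowest in control 2 and PRP 2. Lama4 (Entrez 16775, chromosome 10, 38965515 to 39110188) measured 141, 108 and 165 CPM in control and 140, 115 and 147 CPM in PRP, in the same order of replicate numbers in both groups. Marker sums of several cell types were lowest in these libraries too: 6 stromal fibroblast genes summed to 2604 CPM in control 2 and 2887 CPM in PRP 2, and to 2923 to 3453 CPM elsewhere. For 7 oocyte genes the sums were 1309 and 1421 CPM against 1593 to 2084 CPM, and for 7 endothelial genes 323 and 309.9 CPM against 325 to 392 CPM. For 6 granulosa genes they were not lowest, at 1193 and 1253 CPM against 1066 to 1212 CPM. Nor were they for 6 surface mesothelium genes, at 178 and 214 CPM against 167 to 203 CPM. For 6 pericyte and smooth muscle genes only control 2 was lowest, with sums of 245 and 284 CPM against 276 to 351 CPM. The part of cell makeup in the split was not tested.

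**Figure D3:**
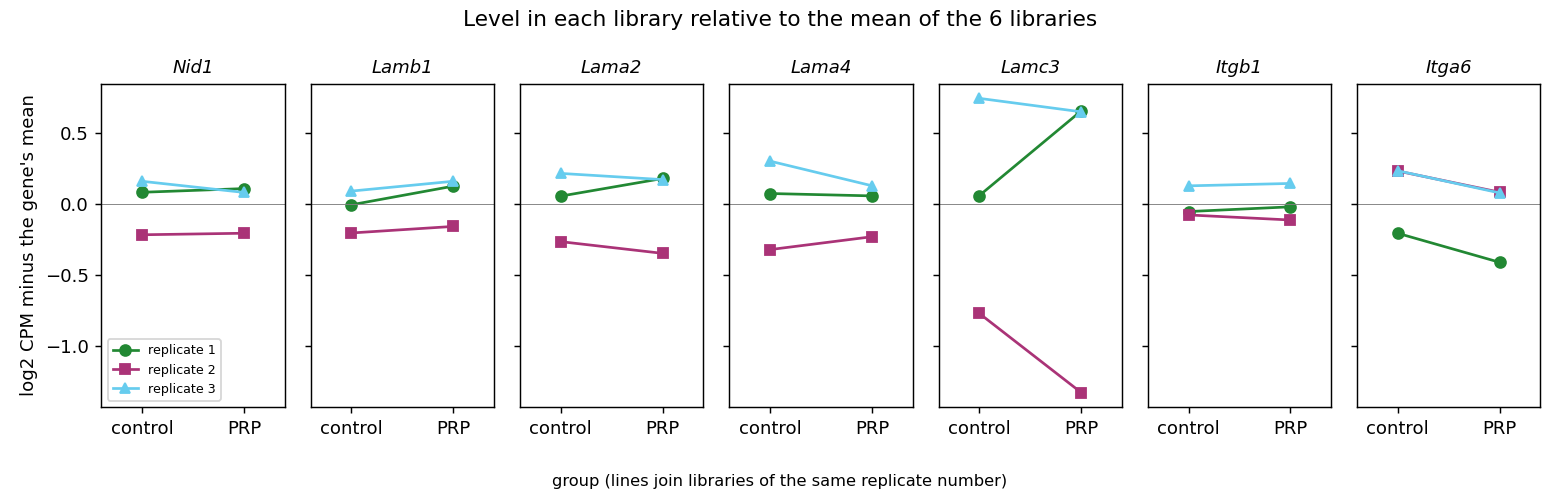
Log2 CPM minus the gene's mean over the 6 libraries for 7 members, in control and PRP, with lines joining libraries of the same replicate number. Replicate 2 lies lowest in both groups for Nid1, Lamb1, Lama2, Lama4, Lamc3 and Itgb1, replicate 1 lies lowest for Itga6, and most lines are close to level.

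The start regions of Nid1, Itgb1 and Itga11, lowest in replicate 2, and of Itgb5, whose groups did not overlap, are shown because they let genes with a like order of libraries be compared with one that differs. RefSeq promoter entries (GRCm38.p6) were found for 24 of the 39 members. The 250 bases before the transcript start are given 5′ to 3′ on the gene's strand, plus for all 4: Nid1 at chr13:13437352-13437601, Itgb1 at chr8:128685404-128685653, Itga11 at chr9:62677605-62677854 and Itgb5 at chr16:33829415-33829664. Capitals mark a GC box (GGGCGG) or a CCAAT box (CCAAT) on either strand. TATAAA and the AP-1 site TGAGTCA were searched in the same way and were not found in these 4 windows, and no marked motif overlapped another.
Nid1: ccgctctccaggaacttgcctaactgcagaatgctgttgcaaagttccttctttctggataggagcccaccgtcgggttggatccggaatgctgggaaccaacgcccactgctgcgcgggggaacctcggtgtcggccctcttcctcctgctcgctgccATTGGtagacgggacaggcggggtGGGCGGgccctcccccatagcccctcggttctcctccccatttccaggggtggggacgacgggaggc
Itgb1: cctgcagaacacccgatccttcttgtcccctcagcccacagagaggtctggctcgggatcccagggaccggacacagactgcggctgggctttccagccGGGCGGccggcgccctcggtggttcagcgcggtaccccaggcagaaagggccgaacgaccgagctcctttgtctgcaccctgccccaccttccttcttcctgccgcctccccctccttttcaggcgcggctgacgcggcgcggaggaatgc
Itga11: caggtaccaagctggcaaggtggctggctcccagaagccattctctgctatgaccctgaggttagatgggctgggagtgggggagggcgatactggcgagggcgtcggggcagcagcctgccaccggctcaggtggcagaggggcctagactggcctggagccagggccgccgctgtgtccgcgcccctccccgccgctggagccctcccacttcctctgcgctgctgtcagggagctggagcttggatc
Itgb5: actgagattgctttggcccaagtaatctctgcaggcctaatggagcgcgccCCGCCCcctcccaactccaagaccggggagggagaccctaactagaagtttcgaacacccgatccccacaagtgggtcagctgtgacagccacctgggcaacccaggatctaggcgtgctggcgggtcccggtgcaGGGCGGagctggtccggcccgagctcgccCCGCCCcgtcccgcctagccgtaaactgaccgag

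Nid1 had 1 GC box and 1 CCAAT box, Itgb1 had 1 and 0, Itgb5 had 3 and 0, and Itga11 had neither. In the first entry of each of the 24 members a GC box was present in 9, a CCAAT box in 4, TATAAA in 0 and TGAGTCA in 1, that of Itgax. Over all 32851 entries of the same length the shares were 32.7%, 33.8%, 12.4% and 4.46%. The 250 bases were 64.4% GC in Nid1, 68% in Itgb1, 68.4% in Itga11 and 65.2% in Itgb5, beside a median of 58.6% over the members' first entries and 52.4% over all entries.

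Itgal (Entrez 16408, chromosome 7, 127296139 to 127335137), the alpha chain of the leukocyte integrin LFA-1, varied most of all tested members, by 20.8-fold between the highest and lowest library. It measured 28.1, 19.7 and 12.9 CPM in control and 29.3, 1.41 and 11.9 CPM in PRP. PRP 2 held 51 counts where the other libraries held 431 to 1066. Its log2 fold change was -0.51 ± 1.01 (SE) and turned to 0.03 without PRP 2. Its obligate partner Itgb2 (Entrez 16414, chromosome 10, 77530329 to 77565708) stayed at 1.19 to 2.95 CPM, and the general leukocyte gene Ptprc at 2.32 to 3.24 CPM. The flanking genes, chosen after their values were seen, were even: Sephs2 at 28.4 to 32.9 CPM and Zfp768 at 41.2 to 48.4 CPM. Itgb2 was lowest in PRP 2 as well, but only 2.49-fold below its highest library.

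**Figure D4:**
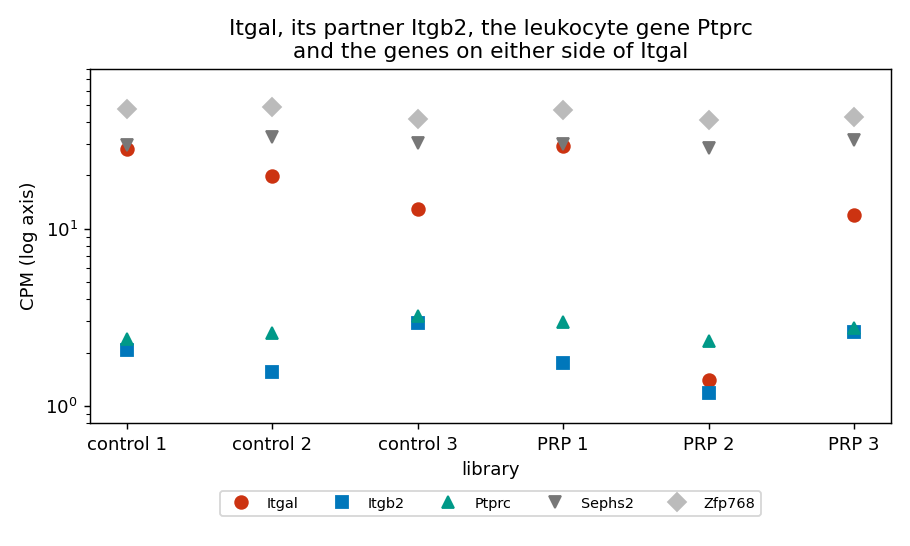
CPM on a log axis in each library for Itgal, its partner chain Itgb2, the leukocyte gene Ptprc, and Sephs2 and Zfp768, which lie on either side of Itgal. Itgal runs from 29.3 CPM in PRP 1 to 1.41 CPM in PRP 2. Itgb2 runs from 2.95 CPM in control 3 to 1.19 CPM in PRP 2, and Ptprc, Sephs2 and Zfp768 stay within narrower bands.

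Itga4 and Itgam were highest in control 3. Itga4 (Entrez 16401, chromosome 2, 79255426 to 79333114), which carries leukocytes and blood precursors to VCAM-1, measured 8.84, 7.27 and 25.3 CPM in control and 11.4, 8.14 and 9.72 CPM in PRP. Its log2 fold change of -0.50 ± 0.48 (SE) became 0.28 without control 3. Itgam, the macrophage and neutrophil chain, measured 1.81, 1.23 and 4.26 CPM in control and 2.09, 1.88 and 2.30 CPM in PRP. Its log2 fold change of -0.22 ± 0.44 (SE) became 0.46 without control 3. That library had the high erythroid sum, whose part in these values was not tested. Over all members control 3 was the highest library in 17 of 36, where 20.6% of all genes showed this. The sum of 9 leukocyte and macrophage genes was 77.1 CPM in control 3 and 55.4 to 73.4 CPM in the others. Itgax, the dendritic cell chain, did not share this order, at 1.00, 1.23 and 0.880 CPM in control and 0.384, 1.24 and 0.471 CPM in PRP, with a log2 fold change of -0.57 ± 0.52 (SE) on 14 to 45 counts.

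Genes around the members in the adhesion pathway held no call either, in lists to be read beside 50.4% of all genes above 0. Of 21 other basement membrane components and integrin ligands 0 were called, 12 lay above 0 and the median log2 fold change was 0.00. Spp1, which codes for osteopontin, an RGD ligand of Itgav integrins, measured 8.45, 7.44 and 8.35 CPM in control and 5.96, 6.84 and 5.32 CPM in PRP, without overlap, and a log2 fold change of -0.42 ± 0.17 (SE). Fbln2, a basement membrane glycoprotein, had a log2 fold change of 0.17 ± 0.09 (SE). The type IV collagen genes Col4a1 and Col4a2, whose network nidogens tie to laminin, had log2 fold changes of 0.02 ± 0.06 and 0.01 ± 0.08 (SE).

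Of 28 adaptors and kinases that act on integrin tails 0 were called, 15 lay above 0 and the median was 0.01. Tns3, an actin-linked adaptor, and Lims1, a partner of integrin-linked kinase, had log2 fold changes of -0.15 ± 0.07 and -0.14 ± 0.07 (SE). Of 12 other laminin receptors and integrin partners 0 were called, 7 lay above 0 and the median was 0.04. Cd9, an integrin-associated tetraspanin, measured 107.5, 107.3 and 105.0 CPM in control and 114.8, 122.1 and 116.0 CPM in PRP. Its groups did not overlap, with a log2 fold change of 0.14 ± 0.06 (SE). Bcam, a receptor for Lama5, had a log2 fold change of 0.22 ± 0.10 (SE). With the block 0 genes of these 3 lists were called either, and the smallest blocked adjusted p among them was 0.147, for Bcam. At an unadjusted p under 0.05 in blocked edgeR were 5 of 21 ligands, 4 of 28 adaptors and 4 of 12 receptors and partners. Of all genes 11.2% were. The groups did not overlap in 4.76%, 10.7% and 8.33% of these lists, beside 9.21% of all genes.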

How the data were processed

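Counts per gene symbol were deposited by the authors as raw, unnormalized values for 6 libraries. The build was GRCm38/mm10 per the submitters' processing notes; no source used here names the aligner, counter, strand setting or annotation. Spans of 14 of the 39 members overlap another gene of the table (Itga1 and Pelo on 1 strand), so reads there can belong to either. The column for PRP 3 has its letters transposed and was matched because every other title has its own column.

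Counts were tested in edgeR 4.0.16 (R 4.3.3; filterByExpr, TMM, robust quasi-likelihood F test, two-sided, Benjamini-Hochberg over 17475 genes), and standard errors were derived from the F statistic. Only the edgeR fit without the block was tested on simulated data. These held no replicate effect, and their changes were set outside the low-count genes. DESeq2 1.42.0, limma-voom (limma 3.58.1), other filters and scalings, and left-out libraries were alternatives. Same-number libraries correlated at 0.24, 0.40 and 0.33 in their deviations from group means, so numbers were taken as pairs from the data, not from a label. Members and lists were chosen with earlier results of these data known. Members named with values were those called in any of the fits with or without the block, the 12 with the smallest p, the 3 highest per subfamily and 4 fixed genes (Itga6, Itgb1, Itga2b, Itgb3), with 2 per context list; 1 member is not reported here singly; Lama2, Lama4, Lamc3, Itgal, Itgam, Col4a1 and Col4a2 were added after their values were seen. Coordinates and promoters are RefSeq GRCm38.p6 by Entrez identifier, and transcript lengths GENCODE M21. Shares of variance and pair differences use log2(CPM + 0.1).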

Additional observations from a re-analysis of the deposited data

How the results depend on the processing

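No member was called under any of the 20 alternatives to the fit without the block, and the smallest adjusted p among them was 0.125 (Itga6, replicate block). Over all genes the count of calls was 21 with the replicate block, 13 with the block and correction for GC content and length, 0 in blocked limma-voom, 0 in the block without robust estimation (chosen after seeing the data), and 0 to 19 when single libraries or replicates were left out (3, 1 and 19 in the blocked fit without replicates 1, 2 and 3). The median of the members ran from -0.0792 to 0.1106 when single libraries or replicates were left out. Of members added after their values were seen, the sign turned when libraries were left out for Itgal, Itgam, Lama2, Lama4 and Lamc3. Of members named by level, smallest p or as fixed genes, it turned in 7. Their log2 fold changes ran from -0.81 to 0.28 for Itga4, -0.10 to 0.15 for Itga5, -0.0671 to 0.0733 for Itgb1 and -0.12 to 0.22 for Itgb3. They ran from -0.11 to 0.10 for Itgb8, -0.0552 to 0.028 for Lamc1 and -0.12 to 0.0779 for Nid1. Among these 7, the sign in the blocked fit turned without replicate 3 for Itga4 (0.2656), Itga5 (0.0582), Itgb1 (-8e-04), Itgb8 (-0.0131) and Nid1 (0.0187). Without replicate 1 it turned for Itgb1 (-0.0107) and Itgb3 (-0.1059). With the block and the GC and length correction Lamc1 was at 0.0063 and Nid1 at 0.0163; the cause was not tested. Over all 36 members 73 of 717 alternative values had the opposite sign, in 22 members, none past the threshold. Members at or above 10 CPM per kb numbered 16, and 19 with the median transcript length. Each of the 8 tested members under 5 CPM had an interval wider than a 1.5-fold change either way.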
